A study of Mus musculus with 2 samples.

Results

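The 86 genes described here encode the proteins of the cytosolic ribosome, with a few relatives that carry similar names. They are the protein-coding genes of GENCODE M21 whose symbols start with Rpl or Rps and a digit, or are Rplp0, Rplp1, Rplp2 or Rpsa, without ribosomal S6 kinases and pseudogenes. They make up 86 of 21911 protein-coding symbols on mm10. Of these, 77 are core genes, 46 for proteins of the large subunit and 31 for the small subunit. The other 9 are paralogues, a retrogene and a binding protein: Rpl3l, Rpl7l1, Rpl10l, Rpl22l1, Rpl36al, Rpl39l, Rps27l, Rps27rt and Rps19bp1. A 10th such name, Rps4l, matched no protein-coding gene of this annotation.

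Chromatin accessibility was measured by DNase-seq, in which DNase I cuts the DNA of nuclei where it is not covered by nucleosomes, in heart tissue of male B6CASTF1/J mice aged 14 days. Such mice are F1 hybrids with 1 parent from C57BL/6J and 1 from CAST/EiJ. There was 1 group of 2 biological replicates, so no condition could be compared with another and no test between groups was made. The label of replicate 1 names 3 males, the label of replicate 2 gives no number of animals, and both cite the same strain-level donor record, so the SD over replicates may in part be technical.

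Most ribosomal proteins are made in nearly equal numbers from genes scattered over the genome, and a cell needs most of the core proteins to build its ribosomes. Their mRNAs are known for beginning with a cytosine and a run of pyrimidines, the terminal oligopyrimidine tract, through which growth signals acting on mTOR and LARP1 set their translation. Their introns often carry small nucleolar RNAs, which guide the modification of ribosomal RNA. In the heart, ribosome content follows the growth of the muscle cell, and muscle carries its own version of one large-subunit protein, Rpl3l.

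The deposited lists held 143122 and 125118 peaks in replicates 1 and 2, with 350009 and 335568 footprints, which are short stretches protected from cutting inside accessible DNA. No read total was at hand, and the sequencing depth of the 2 libraries is therefore unknown. All 7 cardiomyocyte markers examined had a promoter peak in both replicates (Myh6, Actc1, Tnnt2, Tnni3, Mybpc3, Ryr2 and Ttn), as did 4 of 4 endothelial and 4 of 4 fibroblast markers, 1 of 4 leukocyte markers (Cd68) and 0 of 4 liver markers. The tissue held several cell types, and a promoter open in few cells and one weakly open in many cannot be told apart. In what follows, the promoter signal of a gene is the highest deposited peak signal, a scaled cutting density without a stated unit, within 1 kb of any of its annotated starts, and a gene is called open where both replicates have such a peak.

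Of the 86 genes, 83 were open, against 68.8% of all protein-coding genes. All 77 core genes were open, and no member was open in a single replicate. The median promoter signal of the 86 genes was 10.7, against 2.86 over all protein-coding genes and 6.60 over the open ones. This placed the median member at percentile 80.3 of all genes. The signal exceeded the median of open genes in 69 of the 86, against 34.4% of all genes, and 23 of the 86 lay in the highest 10% of all genes. The spread among members was wide, with core genes from 2.36 to 29.3 and an interquartile range of 7.56 to 14.7. Small-subunit genes had a median of 12.2 and large-subunit genes 9.68, and the ranges overlapped almost throughout (3.75 to 19.2 and 2.36 to 29.3). Core promoters were thus always open in this tissue, with signals that differed by more than the replicate spread.

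**Figure D1:**
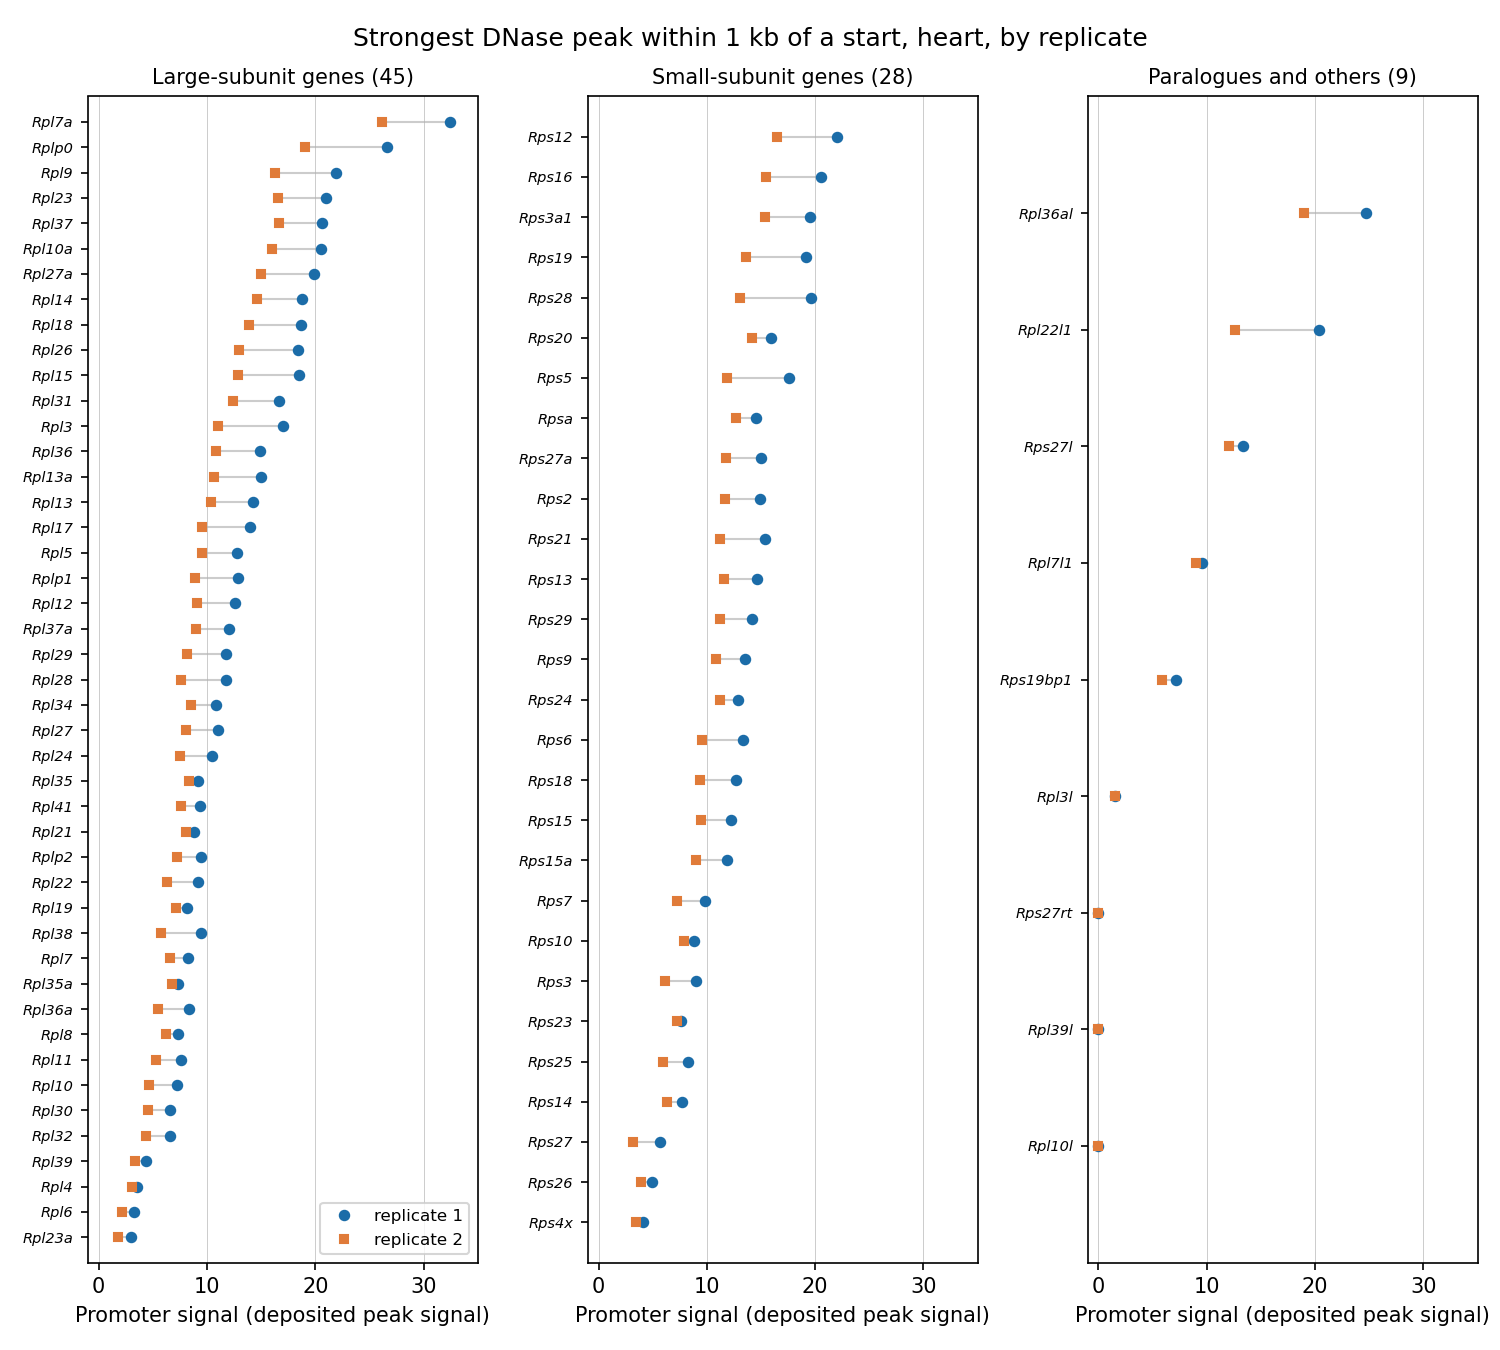
Promoter signal (x axis, deposited peak signal) of 82 of the 86 genes (y axis) in replicate 1 (circles) and replicate 2 (squares), for large-subunit genes, small-subunit genes, and paralogues and others. Replicate 1 lies to the right in all 79 open genes drawn, and Rps27rt, Rpl39l and Rpl10l sit at 0 in both.

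**Figure D2:**
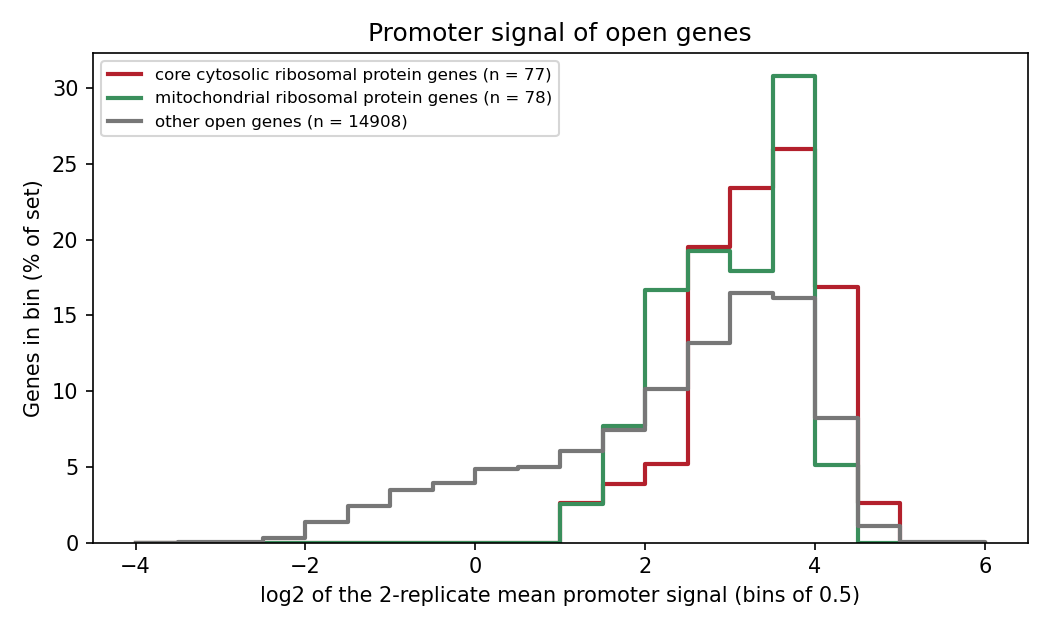
Share of genes (y axis, % of each set) by log2 of the mean promoter signal (x axis, bins of 0.5) for the 77 core genes, 78 mitochondrial ribosomal protein genes and 14908 other open genes. The core genes and the mitochondrial ribosomal protein genes, both far smaller sets, span a narrower range than other open genes. No core gene lies below 2.36, the value of Rpl23a.

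The strongest promoter was that of Rpl7a, a large-subunit protein gene with 3 small nucleolar RNAs in its body. Its signal was 32.4 in replicate 1 and 26.2 in replicate 2, a mean of 29.3 ± 4.41 (SD, n = 2). The peak lies at chr2:26910621-26910800 and also touches the promoter window of Med22, which starts within 1 kb and runs the other way. It can therefore not be assigned to Rpl7a alone. Next came Rplp0, which encodes the base of the stalk where elongation factors dock. Its signal was 26.7 and 19.1, a mean of 22.9 ± 5.35 (SD, n = 2), from a peak that touches no other protein-coding gene. The 2 replicates of Rpl7a both lay above those of Rplp0 in the same replicate. Rpl36al followed with 24.7 and 18.99, again from a peak shared with a neighbour, Mgat2.

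The genes that followed included 6 core genes with closely spaced values. Rps12, a small-subunit protein gene with 3 small nucleolar RNAs, had 21.97 and 16.5. Rpl9 had 21.9 and 16.3 at a peak shared with Lias. Rps12 was slightly above Rpl9 in each replicate, at means of 19.2 and 19.1. Rpl23 had 20.99 and 16.5, and Rpl37 had 20.6 and 16.6. Rpl10a, whose protein is part of a mobile stalk of the large subunit, had 20.5 and 16.0, and Rps16 had 20.5 and 15.5. Rps12 and Rpl9 were above Rpl10a and Rps16 in each replicate, whereas Rpl23 and Rpl37 changed places with others between replicates.

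The promoters of Rplp0, Rps12 and Rpl23, among the strongest whose peak touched a single gene, serve here as an example of how protected and cut bases alternate. Each run covers 100 bases before the representative start, the start of the main annotated protein-coding transcript, and the first 20 bases from it, read 5′ to 3′ on the gene's strand from mm10, with capitals for bases inside a footprint in both replicates. The start base is base 101 of each run.
Rplp0: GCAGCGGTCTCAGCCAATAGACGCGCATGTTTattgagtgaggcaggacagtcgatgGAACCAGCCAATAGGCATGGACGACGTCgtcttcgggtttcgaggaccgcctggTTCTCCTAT
Rps12: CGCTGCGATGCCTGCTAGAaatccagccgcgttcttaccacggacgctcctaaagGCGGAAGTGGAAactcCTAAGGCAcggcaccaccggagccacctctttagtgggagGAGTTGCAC
Rpl23: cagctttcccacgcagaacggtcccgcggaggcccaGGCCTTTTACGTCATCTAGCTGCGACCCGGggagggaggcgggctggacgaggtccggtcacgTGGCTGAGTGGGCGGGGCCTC
The runs lie at chr5:115559367-115559486 (+) for Rplp0, chr10:23787256-23787375 (-) for Rps12 and chr11:97782418-97782537 (-) for Rpl23. Of the 120 bases, 69 were footprinted in both replicates in Rplp0, 48 in Rps12 and 51 in Rpl23. In Rplp0, both matches to CCAAT, the letters of the NF-Y factor, lay in a footprint, at -87 and -36. In Rpl23 a footprint touched the E-box letters CACGTG at -5 and GGGCGG, the letters of SP factors, at +9. The 3 promoters were all footprinted over much of the run. Within the runs, the matches of Rplp0 and Rpl23 were to different letters, and Rps12 had no match to any of the 11 motifs searched.

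At the other end, 5 open members had the weakest promoters. Rpl3l had 1.55 in replicate 1 and 1.52 in replicate 2. Rpl23a, whose protein sits where the new chain leaves the ribosome, had 2.95 and 1.76, a mean of 2.36 ± 0.841 (SD, n = 2). Rpl6 had 3.27 and 2.17. Rpl4, whose protein lines the exit tunnel, had 3.49 and 3.09. Its strongest peak was centred at -444.5 bases from the start, at chr9:64172841-64173020, and is shared with Zwilch, which starts on the other strand. The peak just inside Rpl4 had only 1.52 and 1.41. Rps4x, on the X chromosome, had 4.07 and 3.43. The 4 core genes among them lay near the median of all protein-coding genes, 2.86, and below the open-gene median of 6.60 in both replicates. None of the 32-base words in the promoters of Rpl4 and Rpl23a recurred elsewhere in the genome, and 2.23% did in Rpl6.

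The paralogues split into open and closed promoters. Rpl22l1, the relative of Rpl22, had 20.3 and 12.6, above Rpl22 itself at 9.21 and 6.31 in both replicates. Rps27l, the relative of Rps27, had 13.4 and 12.03, above Rps27 at 5.71 and 3.19. Rpl36al stood above Rpl36a, which is X-linked and had 8.31 and 5.51. Rpl7l1 had 9.56 and 9.04 and Rpl7 had 8.27 and 6.58, so that the replicates of Rpl7 reached neither value of Rpl7l1. Rps19bp1, which encodes a protein that binds Rps19, had 7.15 and 5.88. Rpl10l and Rpl39l, which are known for expression in testis, and the retrogene Rps27rt had no promoter peak and 0 footprints in both replicates. The nearest listed peaks of Rps27rt were about 3.8 and 4.3 kb downstream of its start. In 4 of these pairs the paralogue thus had the stronger promoter, in both replicates. Rpl3l, Rpl10l, Rpl39l and Rps27rt instead stood below Rpl3, Rpl10, Rpl39 and Rps27 in both. The peak of Rpl36al is shared with Mgat2 and that of Rps27 with Rab13, so these values do not belong to the pairs alone.

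Rpl3 and Rpl3l form the pair of most interest in muscle, because the protein of Rpl3l replaces that of Rpl3 near the catalytic centre of the ribosome in heart and skeletal muscle. Rpl3 had 16.99 in replicate 1 and 11.01 in replicate 2, a mean of 14.0 ± 4.22 (SD, n = 2), and Rpl3l a mean of 1.54 ± 0.0221. At the representative start of Rpl3l the peak had 1.39 and 0.997, and its strongest peak, 1.55 and 1.52, lay by an internal annotated start 4865 bases downstream. Stronger peaks flanked the gene. A peak centred at -3359.5 bases from the start had 17.5 and 13.6, and another about 8.7 kb downstream, beyond the gene's end, had 12.5 and 8.11. Whether either acts on Rpl3l was not tested.
Rpl3: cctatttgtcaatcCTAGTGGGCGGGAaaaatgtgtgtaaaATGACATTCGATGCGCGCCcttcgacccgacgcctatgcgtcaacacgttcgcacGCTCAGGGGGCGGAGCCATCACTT
Rpl3l: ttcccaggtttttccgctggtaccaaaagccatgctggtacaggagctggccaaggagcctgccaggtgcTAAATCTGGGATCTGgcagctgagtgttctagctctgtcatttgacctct
These runs lie at chr15:80083387-80083506 (-) for Rpl3 and chr17:24727720-24727839 (+) for Rpl3l, written as above. Footprints in both replicates covered 56 of the 120 bases in Rpl3 and 15 in Rpl3l. The Rpl3 run holds GGGCGG at -81 and +4, each touched by a footprint. The Rpl3l promoter held none of the 11 motifs searched apart from the GATA letters AGATAA at -209, outside a footprint. Rpl3l also had the lowest ratio of observed to expected CpG among the 86 promoters, 0.0893, against a median of 0.837.

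Of the core genes, 4 are X-linked and so present once per cell in these male mice. Rpl36a had 8.31 and 5.51, Rpl10 had 7.19 and 4.66, Rpl39 had 4.40 and 3.31, and Rps4x had 4.07 and 3.43. Rpl10 encodes a protein that joins the large subunit late, in the cytoplasm. Their median was 4.89, against 11.04 for the 73 autosomal core genes, a ratio of 0.443. The highest X-linked value, 6.91 for Rpl36a, exceeded 10 of the 73 autosomal core genes. Among open genes outside the group, X-linked ones had a median of 2.93 and autosomal ones 6.76, a ratio of 0.434. The X-linked ribosomal protein genes thus stood below the autosomal ones by nearly the same ratio as in the rest of the genome.

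Diamond-Blackfan anaemia, an inherited failure of red cell production, is caused by mutations in ribosomal protein genes, and a list of 9 genes mutated most often in it was examined. Rps26 was the lowest of them at 4.43, and Rps19 reached 19.2 and 13.6 in replicates 1 and 2. Their median was 8.56, against 10.9 for the 68 other core genes. Rpl5 and Rpl11, whose proteins carry the small ribosomal RNA of the large subunit and can bind MDM2, had 12.7 and 9.51, and 7.62 and 5.32. These 9 genes spread over most of the core range and did not form a group of their own.

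Replicate 1 was higher in all 83 open members, against 80.6% of 14986 other open genes and 92.3% of 78 mitochondrial ribosomal protein genes. The log2 ratio of replicate 1 to replicate 2 had a median of 0.42 in members and 0.26 in other open genes, and 0.29 in other open genes of like signal, those within 7.50 to 14.8, the members' interquartile range. Among these 4765 genes of like signal, 88.4% were higher in replicate 1. The 41 members within the same range had a median ratio of 0.43, and all 41 were higher in replicate 1. The ratio was highest in Rps27 (0.84), Rpl23a (0.74), Rpl38 (0.72), Rpl22l1 (0.69) and Rpl28 (0.63). Among the lowest were Rpl3l (0.03), Rpl7l1 (0.08), Rps23 (0.08) and Rpl35a (0.12). Rpl38 illustrates the upper end with 9.40 and 5.72, and Rps23 the lower with 7.65 and 7.21. Across the 83 open members the log2 signals of the replicates had a Pearson r of 0.977, a description over genes that share 2 libraries. The offset between replicates was therefore larger for these genes than for most, and its cause was not tested.

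Footprints within 1 kb of the starts numbered 8 in the median member, the same as in the median open gene, while other open genes of like signal had 9.5 and the 41 members in that range had 8. Most were found in Rps14 (24 in replicate 1 and 21 in replicate 2), Rpl7 (20 and 19) and Rpl10 (14 and 17). Fewest among open members were found in Rps4x (3 and 3), Rpl35 (2 and 5) and Rpl28 (3 and 5). In other open genes, the footprint count rose with the signal, with a Pearson r of 0.509 over 14986 genes between the count and log2 signal. In the 83 open members r was -0.007. Members span a narrower range of signal than other open genes, and no r was computed for other genes within that range. The 2 values of r are therefore not directly comparable. Rpl7a, with the strongest peak, had 6 and 4 footprints, and Rps14, with a signal of 7.74 and 6.30, had the most. The counts run over the windows of all annotated starts, which held 2363 and 2228 accessible bases in Rps14 and 1130 and 1246 in Rpl7a, so these 2 counts come from unequal lengths of sequence. Both sets of correlations are descriptions over genes of the same libraries.

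**Figure D3:**
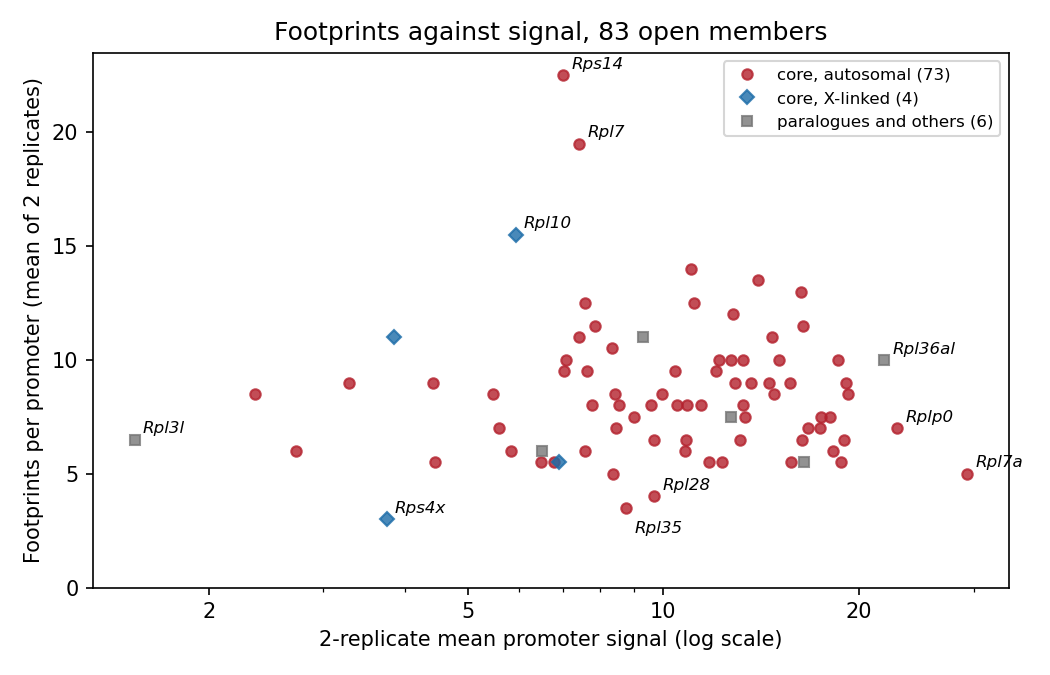
Footprints per promoter (y axis, mean of 2 replicates) against mean promoter signal (x axis, log scale) for the 83 open members: autosomal core genes (circles), X-linked core genes (diamonds), paralogues and others (squares). Rpl7a and Rplp0, at the right, have 5 and 7 footprints, and Rps14, at mid signal, has 22.5.

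Around the representative start, core promoters were accessible and footprinted further into the gene than others. From +1 to +50, footprints covered 29.1% and 28.7% of bases in replicates 1 and 2 in core genes, 19.3% and 18.8% in other open genes, and 25.9% and 24.9% in those of like signal. From +101 to +150 the values were 15.6% and 17.9% in core genes, 7.32% and 8.66% in other open genes, and 9.46% and 10.98% in genes of like signal. The 41 members in the like-signal range had 29.6% and 28.1% in the first of these stretches and 15.2% and 19.8% in the second. Upstream, from -50 to -1, core genes (33.3% and 32.8%) and genes of like signal (33.8% and 32.8%) had nearly equal coverage, and the 41 members in range had 35.95% and 36%. Relative to genes of like signal, the difference was thus larger downstream of the annotated start than just upstream of it. Where the annotation places the start bears on these values, and its part in them was not tested. The start base lay in a footprint of both replicates in 23 of 86 members, against 17.2% of other open genes and 24.1% of those of like signal.

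**Figure D4:**
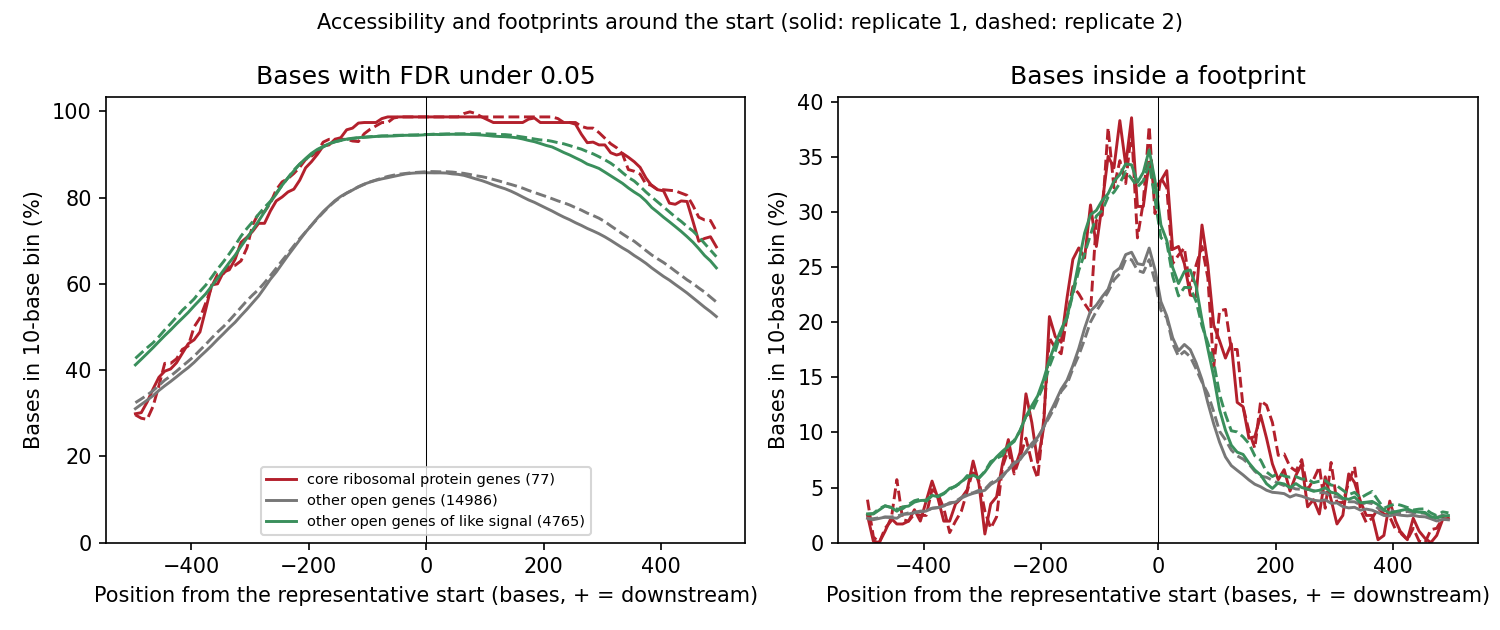
Share of bases (y axis, % per 10-base bin) with FDR under 0.05 (left) and inside a footprint (right) by distance from the representative start (x axis, bases) for 77 core genes, 14986 other open genes and 4765 other open genes of like signal, with replicate 1 solid and replicate 2 dashed. The core curve stays above that of genes of like signal from +101 to +150, where it has 15.6% and 17.9%.

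Known promoter letters were searched on both strands from 250 bases before to 50 after the representative start. The letters that stood out were TCTCGCGA, which the factor BANP is known to bind at CpG island promoters when unmethylated. They were present in 14 of 86 members, all of them core genes, against 1.38% of all protein-coding genes, 1.81% of other open genes and 2.67% of those of like signal. Most of the 14 had signals outside the like-signal range, and of the 41 members inside it 3 (7.32%) held these letters. A footprint touched a match in both replicates in 10 of the 86, against 0.931% of all genes. Within the like-signal range, it did so in 3 of 41 members (7.32%), against 1.95% of other genes. Rpl7a, Rpl10a, Rpl17, Rpl26, Rps3a1, Rps6, Rps15a and Rps28 were among the 10. Of the 21 matches, 15 began within 100 bases upstream of the start, and 16 were in a footprint of both replicates. In 7 genes the match was part of the longer palindrome TCTCGCGAGA, which reads the same on both strands and gives 2 overlapping matches, against 0.607% of all genes. The mitochondrial ribosomal protein genes, although as often open, held TCTCGCGA in 2 of 78. In 25 genes of ribosome assembly and RNA polymerase I, it was present in 4 (16%) and footprinted in 4. That share is close to the 16.3% of members. Among 17 translation factors and other genes known for pyrimidine-rich starts, it was present in 0.

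Printed here are 4 further promoters with a footprint on the palindrome, because they show where the footprint and the letters meet. Capitals cover all of its letters in Rpl10a, Rpl26 and Rps6, and all but the first in Rps28. They were chosen after their values were seen.
Rpl10a: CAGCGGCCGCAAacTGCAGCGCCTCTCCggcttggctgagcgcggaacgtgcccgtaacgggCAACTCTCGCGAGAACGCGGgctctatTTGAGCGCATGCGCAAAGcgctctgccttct
Rps28: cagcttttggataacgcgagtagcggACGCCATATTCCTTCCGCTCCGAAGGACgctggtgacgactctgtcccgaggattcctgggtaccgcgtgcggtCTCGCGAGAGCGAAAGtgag
Rpl26: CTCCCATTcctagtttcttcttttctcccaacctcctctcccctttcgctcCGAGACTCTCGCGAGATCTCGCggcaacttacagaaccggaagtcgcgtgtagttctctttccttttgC
Rps6: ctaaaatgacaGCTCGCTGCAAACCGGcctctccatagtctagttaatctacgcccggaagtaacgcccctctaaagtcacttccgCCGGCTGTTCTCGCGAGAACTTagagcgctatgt
They lie at chr17:28328468-28328587 (+) for Rpl10a, chr17:33824543-33824662 (-) for Rps28, chr11:68901483-68901602 (+) for Rpl26 and chr4:86857393-86857512 (-) for Rps6, written as above. The palindrome begins at -34 in Rpl10a, -43 in Rpl26, -6 in Rps6 and -1 in Rps28. Rpl10a also holds GCGCATGC, the letters of NRF1, at -7 inside the next footprint. Rps6, whose protein is the classic target of the S6 kinases, had 13.4 and 9.51. Rps28 had 19.7 and 13.0 at a peak shared with Ndufa7. Rpl26, whose protein lies near the exit of the nascent chain, had 18.4 and 12.9.

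Letters of ETS factors, CCGGAAGT, were present in 14 of 86 members, against 5.02% of all genes and 9.88% of genes of like signal, and in 8 of the 41 members in that range. They were footprinted in 5 (5.81%), against 2.69% of all genes and 5.58% of genes of like signal, and in 8 when footprints were widened by 5 bases. YY1 letters, AAGATGGCG, were present in 5 members (5.81%), against 1.86% of all genes and 4.197% of genes of like signal, and in 1 of the 41 members in range. They were footprinted in 3 (3.49%), against 0.908% and 2.27%. Footprinted ETS letters were thus no more frequent than in genes of like signal, and the YY1 counts are too small to set apart. The YY1 matches in a footprint were those of Rpl18, Rpl23a and Rpl7l1. In the mitochondrial ribosomal protein genes, ETS letters were present in 13 of 78 and YY1 letters in 8 of 78, at shares close to or above those of the cytosolic genes. Rpl37, Rpl18 and Rps18 are shown as examples with a high signal and a footprinted match inside the printed window.
Rpl37: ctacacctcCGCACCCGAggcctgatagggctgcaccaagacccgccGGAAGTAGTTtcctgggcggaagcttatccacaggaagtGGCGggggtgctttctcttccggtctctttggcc
Rpl18: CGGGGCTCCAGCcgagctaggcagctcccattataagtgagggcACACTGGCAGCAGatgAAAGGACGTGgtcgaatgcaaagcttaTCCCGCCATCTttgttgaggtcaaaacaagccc
Rps18: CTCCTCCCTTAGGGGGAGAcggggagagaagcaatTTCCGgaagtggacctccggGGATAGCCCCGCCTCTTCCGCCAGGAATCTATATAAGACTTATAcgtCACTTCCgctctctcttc
These lie at chr15:5116545-5116664 (+), chr7:45715357-45715476 (+) and chr17:33955658-33955777 (-). ETS letters begin at -55 in Rpl37 and at -63 in Rps18, and the YY1 letters are on the other strand at -10 in Rpl18. In Rpl37 and Rps18 the footprint covered only some of the ETS letters. The strongest peak of Rpl18, 18.7 and 13.9, lay near other annotated starts of that gene more than 2 kb downstream and is shared with Sphk2. The peak at the start shown had 15.3 and 13.2. With shared peaks left out, Rpl18 had 0 and 0.782. The strongest peak of Rps18 is shared with Vps52.

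For the remaining letters the members' shares were closer to those of all genes or of genes of like signal. GGGCGG of SP factors was present in 45 of 86, against 45.4% of all genes and 69.8% of genes of like signal, and was footprinted in 35 (40.7%), against 27% of all genes and 52.6% of genes of like signal. CCAAT of NF-Y was present in 26 (30.2%), against 38.6% of all genes and 40.4% of genes of like signal. It was footprinted in 9 (10.5%), against 8.12% and 17.5%. Over all 86 members, both were thus less frequent than in genes of like signal. Of the 41 members in that range, 18 (43.9%) held GGGCGG and 14 (34.1%) held CCAAT. A footprint touched GGGCGG in 14 (34.1%) of them and CCAAT in 5 (12.2%). The CCAAT differences within the range were small and rest on few genes. The E-box CACGTG, known as a site of MYC and USF factors, was present in 9, against 7.71%, and NRF1 letters in 4, against 3.74%. The cyclic AMP response element TGACGTCA was present in 5, against 2.48% of all genes and 3.84% of genes of like signal. Of the letters of heart factors, AGATAA of GATA factors was present in 8 (9.30%), against 9.79% of all genes and 4.97% of genes of like signal. It was present in 2 of the 41 members in that range (4.88%). A footprint touched it in 1 member (1.16%), against 0.215% and 0.462%. CTATTTATA of MEF2 was present in 0, against 0.415% of all genes, a share too small for a set of 86 to be set apart. A match is a string of letters and does not show which protein was bound. The promoters differed in base composition too, with a median GC content of 55.7% in members, 60.3% in open genes and 61.7% in genes of like signal, and the part of this in the SP counts was not tested.

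**Figure D5:**
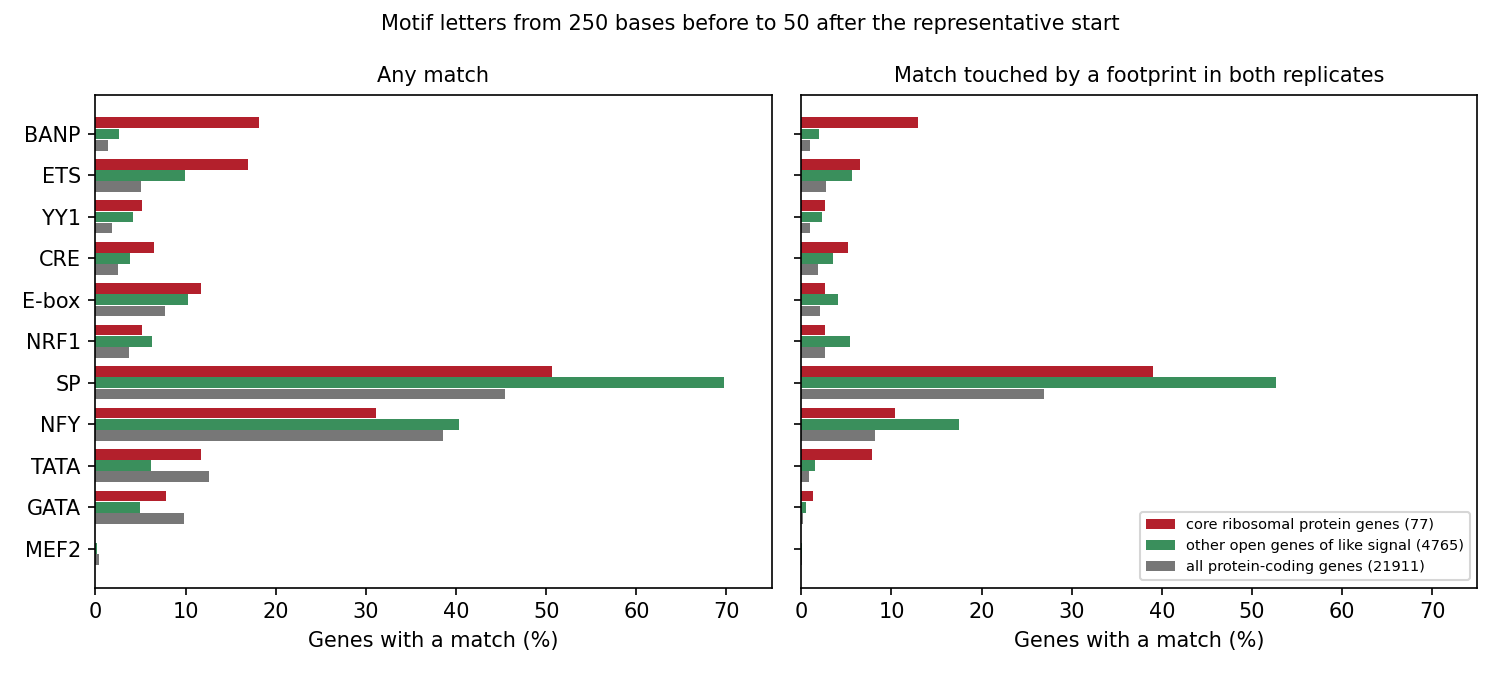
Share of genes (x axis, %) with each set of motif letters (y axis) from 250 bases before to 50 after the representative start, for any match (left) and for a match touched by a footprint in both replicates (right), in 77 core genes, 4765 other open genes of like signal and 21911 protein-coding genes. The core genes span all signals: BANP letters reach 18.2% and, footprinted, 13.0% in them and 2.67% and 1.95% in genes of like signal, while 7.32% of the 41 members in the like-signal range hold them.

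GC content went with signal among the members. Over the 83 open members, Pearson r between GC content and log2 signal was 0.543, against 0.262 in 14986 other open genes. Rpl7a had a GC content of 67.7% and Rpl36al 70.0%, whereas Rpl4 had 39.3% and Rpl23a 44.0%. Rpl41, at 36.7% the lowest in GC, had a signal of 9.33 and 7.59. These values describe genes measured in the same libraries, and the part of base composition in the signal was not tested.

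The annotated starts of these genes bear on all position-based values. A cytosine followed by at least 4 pyrimidines, the hallmark of ribosomal protein mRNAs, was present at the representative start of 9 of 86 members, against 2.27% of all genes. Among the 9 were Rpl4, Rpl32, Rpl36, Rpl37, Rpl37a, Rps21, Rps24 and Rps27rt, with runs of up to 17 pyrimidines in Rps24. When any annotated start was allowed, 35 of 86 had such a run, against 8.53% of all genes and 10.6% of genes of like signal. A gene with more annotated starts has more places for such a run, and the number of starts was not matched between these sets. The run began within 5 bases of the representative start in 24, against 18.2%. The start base itself was a cytosine in 27 of 86, against 17.6%. In the starts of RefSeq's promoter table, which holds 66 of the members, 14 began with such a run, against 2.71% of 16522 genes. The hallmark was thus more frequent in members by each of these definitions, but the chosen start lacked it in most of them.

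TATA letters, too, lay mostly downstream of the chosen start. TATAAA was present in 10 of 86 members, against 12.6% of all genes, but was footprinted in 7, against 0.812% of all genes and 1.55% of genes of like signal, and in 2 of the 41 members in that range. None of the 12 matches began from 40 to 20 bases before the representative start, where a TATA box normally lies, against 17.5% of 1271 matches in other open genes. Instead 8 of the 12 lay downstream of it, against 9.13% in other open genes. Only 6 of the 12 were on the gene's own strand, against 57.5% in other open genes. The downstream matches included overlapping ones on both strands in Rpl22l1. Rplp0 and Rps2 had one on their own strand at +18, and Rps28 at +38, each in a footprint. Which start was used in the heart was not measured.

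Small nucleolar RNA genes were frequent inside these genes. A small nucleolar RNA gene lay inside 30 of the 86 on the same strand, against 1.18% of all genes, with 5 in Rpl4 and 4 in Rpl13a. All 30 hosts were core genes, and their median signal, 12.04, was close to that of the other 47, 10.4, beside interquartile ranges of 6.34 to 14.997 and 7.60 to 13.9. The mitochondrial ribosomal protein genes held 0 such hosts among 78. Another gene started head to head within 1 kb in 12 of 86, against 9.09% of all genes and 19.6% of genes of like signal. The strongest peak of replicate 1 touched the promoter of another gene in 15 of 86, against 12.6% of all genes. Closed genes have no such peak, and over open genes alone the shares were 18.1% of members and 18.3% of others. When such peaks were left out, 68 of the 86 were still open, against 58.6% of all genes. Members were short, with a median span of 3.33 kb against 24.8 kb for open genes.

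Ribosomal protein genes have many processed copies in the genome, so the uniqueness of their promoters was checked. In 58 of 86 members, none of the 32-base words from 250 bases before to 50 after the start recurred elsewhere, and more than 10% recurred in 8. No word recurred in 67.4% of members, against 79.0% of all genes and 89.0% of open genes, and more than 10% recurred in 9.30%, against 14.0% and 4.97%. Among the 8 were Rps29 (42.0%), Rpl37a (30.5%), Rpl35 (24.2%) and Rpl5 (22.7%). Rps29 had a signal of 14.1 and 11.3, and Rpl38, where 14.5% recurred, had 9.40 and 5.72, so repeated words were found beside both higher and lower signals. How reads from such words were placed is unknown, and values of these 8 genes are uncertain for that reason.

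The remaining genes of the pathway gave a scale for these values. Ribosomal protein genes without such a symbol were open as well: Fau had 20.1 and 16.8, and Rack1 had 5.95 and 4.60. All 17 translation factors and other genes known for pyrimidine-rich starts were open, with a median of 15.1, from Eef1a2, the muscle and neuron form of elongation factor 1A, at 1.38 and 0.991 to Eef2 at 24.0 and 21.4. Eef1a1, its widely expressed relative, had 12.2 and 8.86. The 25 genes of ribosome assembly and RNA polymerase I were all open, with a median of 7.74, from Rrp12 at 3.05 and 2.10 to Nop56 at 21.8 and 16.8. All 10 regulators were open, with a median of 7.68, among them Mtor at 9.35 and 7.14 and Larp1 at 5.28 and 5.85. The 78 mitochondrial ribosomal protein genes, which serve the organelle's own ribosome, were all open with a median of 8.66 and an interquartile range of 5.58 to 13.2. Core cytosolic genes lay somewhat higher, at a median of 10.8 and 7.56 to 14.7, with wide overlap.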

How the data were processed

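Each replicate's files had been made by the authors from its own filtered alignment on mm10, with no pooling, per the file headers and README lists. The callers and the read depth were not given in the sources used here. The deposited peak signal was used as listed; its exact scaling is not stated. The deposited false discovery rates, used like q-values, list only runs of bases under 0.05. The deposited footprint lists hold 0.01 throughout in their other column, which was not used. The 86 genes, lists, motifs and settings were chosen with earlier results of these data known.

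The larger peak set of each replicate was used. A value is the highest peak within 1000 bases of any GENCODE M21 start, 0 without a peak, and means and SDs are over 2 replicates. The representative start is that of the protein-coding transcript with the best APPRIS level, then support level, then length. Sequences came from GRCm38.p6, whose chromosome lengths hold all file coordinates, and 16 of 16 members with the same start in RefSeq's promoter table (66 members) had the same bases. Named were members not open, the 10 highest and 5 lowest, X-linked genes, paralogues, extreme replicate ratios and footprint counts; other names were chosen after values were seen. Interval and motif counts were tested on simulated data. Values were computed in Python 3.11.15 with pandas 2.3.3, numpy 2.4.6 and numba 0.67.0, correlations with scipy 1.17.1, and plots with matplotlib 3.10.9. Alternatives covered windows, peak sets, shared peaks, overlap, motif windows, footprint flanks, starts and each replicate alone. Alleles were not analysed here, and a few genes are counted in the totals but not reported by name.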

Additional observations from a re-analysis of the deposited data

How the results depend on the processing

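With 1 group of 2 replicates, each value describes these libraries, and read depth is unknown. Open members numbered 83 with windows of 500 bases or 2 kb, the representative start, the smaller peak set, 50% overlap, FDR in place of peaks and either replicate alone, and 68 with unshared peaks, when the open share of all genes was 58.6% in place of 68.8%. Leaving out 1 replicate gave a median signal of 9.02 to 12.1 and a median percentile of 77.8 to 81.6. It gave an X-linked median of 4.05 to 5.79 and 7.5 to 8 footprints. The median signal fell to 8.51 with unshared peaks, when that of all genes was 1.02. Footprints per member were 4.5 from 250 bases before to 50 after the representative start (4 in open genes) and 7.5 with windows of 500 bases (7 in open genes), since fewer bases were counted. Members with a pyrimidine run numbered 24 within 5 bases of the start, 35 at any annotated start and 14 at RefSeq starts, the last chosen after seeing the data. Of 55 other motif counts, 40 stayed within 1.5 times and 15 did not. In the counts that follow, the share of all genes at the same setting is in brackets. With 500 bases either side, YY1 letters were in 10 members (3.72%), SP in 75 (61.6%), NRF1 in 7 (5.58%) and E-box in 24 (16.9%). NF-Y letters were then in 53 (69.95%), TATA in 21 (31.5%), GATA in 19 (29.8%) and BANP in 17 (2.07%). From 100 bases before to 50 after, NRF1 letters were in 2 (2.54%), E-box in 3 (4.71%), GATA in 2 (3.99%) and BANP in 12 (0.963%). With footprints widened by 5 bases, footprinted ETS letters were in 8 (3.10%), E-box in 5 (2.57%) and GATA in 3 (0.411%). Without replicate 1, footprinted E-box letters were in 4 (2.54%) and GATA in 3 (0.324%). Of 30 list values, 30 stayed within 1.5 times. No paired analysis was possible because there is 1 group.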

Other observations

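After the pyrimidine runs had been seen, footprints were also counted around the nearest annotated start with such a run, in the 33 open core genes that have one within 850 bases of the representative start. The run was at the representative start in 8 of them, downstream in 25 and upstream in 0, with a median of 45 bases downstream. Rps9 has it 45 bases downstream, Rpl10 45 bases and Rps2 47 bases. Among 880 other open genes with such a start, 416 had it downstream and 133 upstream. From 50 bases before this start to the base before it, footprints covered 38.3% and 37.0% of bases in replicates 1 and 2 in the core genes, against 22.8% and 21.8% in the other genes. In the 50 bases from the start they covered 23.6% and 21.9%, against 15.6% and 15.6%. The start base lay in a footprint of both replicates in 4 of 33 core genes and in 106 of the 880 others. It was accessible in both replicates in 32 of the 33 core genes and in 731 of the 880 others. These others were not limited to genes of like signal. Just upstream of the representative start, genes of like signal had higher footprint coverage than other open genes in both replicates. The part of signal and accessibility in the differences at pyrimidine runs was not tested.

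The 14 core genes with TCTCGCGA had a median signal of 16.0, against 9.68 in the 63 without, with ranges of 2.36 to 29.3 and 2.72 to 22.9. Their highest was Rpl7a and their lowest Rpl23a, whose match at -30 was outside a footprint. Their footprint counts had a median of 7.25, against 8.5 in the 63.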
